A study of Mus musculus with 933 samples.

Results

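The 10 genes described here encode heterogeneous nuclear ribonucleoproteins (hnRNPs) of the C, F, H, K, M and R families with the related RNA-binding proteins Syncrip and Grsf1. They were chosen by name: Hnrnpc, Hnrnpf, Hnrnph1, Hnrnph2, Hnrnph3, Hnrnpk, Hnrnpm, Hnrnpr, Syncrip and Grsf1 each had 1 row among the 23845 genes of each of 12 expression tables, and all 10 were found in all 12. The tables hold 933 single mouse embryos of the FVB strain, in 33 groups of 8 to 42 embryos, sequenced by the Smart-seq2 method, which copies whole mRNAs from very small inputs. Zygotes were made by intracytoplasmic sperm injection (ICSI) with sperm of the testis, of the caput (the first part of the epididymis) or of the cauda (its last part, where mature sperm are stored). Embryos were taken at the 2-cell stage (18, 24 and 28 h after ICSI), the 4-cell stage (3 cohorts), the 8-cell stage, the morula stage (2 cohorts) and the blastocyst stage (5 cohorts). In 3 of these cohorts zygotes of caput sperm also received RNA 3 h after ICSI, labelled "GFP", "EpiM small RNA", "EpiM miRNA" or "EpiM tRF", and the labels give no injection for the caput and cauda groups beside them. Values are TPM, a library's transcripts scaled for their length and to a fixed total, and the depth behind them is unknown.

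hnRNPs bind nascent transcripts and act in splicing, export, stability and translation of mRNA. The F and H proteins and Grsf1 share a type of RNA-recognition motif that binds runs of G. Hnrnpk binds C-rich RNA through KH domains, Hnrnpc packages nascent RNA and binds runs of U, and Hnrnpm is a splicing regulator that binds GU-rich RNA. Hnrnpr and Syncrip, also called hnRNP Q, are close relatives, and Syncrip acts in mRNA stability and translation. Grsf1 is best known, from human cells, for its place in mitochondrial RNA granules, where newly made mitochondrial RNA is processed. Early embryos live first on RNA stored by the oocyte and then switch on their own genome, in the mouse mainly at the 2-cell stage.

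Grsf1 was the member called most often between sperm sources and injected RNAs, and Syncrip and Hnrnpm were those that rose most within the 2-cell stage. Their promoters are printed for that reason, as RefSeq places them in GRCm38.p6, the assembly of the mm10 build that the submitters' processing notes name. Each window runs from 250 bases before to 50 after the start that the RefSeq-based promoter table uses and is written 5′ to 3′ on the gene's strand. For Grsf1 and Hnrnpm this start is the annotated end of the gene on the minus strand (a distance of 0), and for Syncrip it lies 194 bases inside the gene as annotated, so that most of the Syncrip window is within the gene. Capitals mark matches on either strand to GGGCGG (GC box), CCGGAAG (the ETS family), CCAAT (the CCAAT box) and TATAAA (the TATA box).
Grsf1, chr5:88676122-88676421, minus strand: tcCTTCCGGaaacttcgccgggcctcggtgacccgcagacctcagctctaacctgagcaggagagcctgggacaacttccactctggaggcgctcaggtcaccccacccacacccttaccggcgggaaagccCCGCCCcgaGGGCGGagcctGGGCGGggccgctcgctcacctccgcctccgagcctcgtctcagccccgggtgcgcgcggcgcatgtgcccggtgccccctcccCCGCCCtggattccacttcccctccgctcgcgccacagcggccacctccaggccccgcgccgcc
Syncrip, chr9:88482348-88482647, minus strand: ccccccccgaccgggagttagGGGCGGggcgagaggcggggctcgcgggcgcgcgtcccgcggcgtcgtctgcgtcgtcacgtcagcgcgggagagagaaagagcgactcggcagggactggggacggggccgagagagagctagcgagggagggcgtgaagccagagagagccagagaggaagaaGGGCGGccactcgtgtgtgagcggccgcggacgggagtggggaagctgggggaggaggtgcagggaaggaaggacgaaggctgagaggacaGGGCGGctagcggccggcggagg
Hnrnpm, chr17:33685409-33685708, minus strand: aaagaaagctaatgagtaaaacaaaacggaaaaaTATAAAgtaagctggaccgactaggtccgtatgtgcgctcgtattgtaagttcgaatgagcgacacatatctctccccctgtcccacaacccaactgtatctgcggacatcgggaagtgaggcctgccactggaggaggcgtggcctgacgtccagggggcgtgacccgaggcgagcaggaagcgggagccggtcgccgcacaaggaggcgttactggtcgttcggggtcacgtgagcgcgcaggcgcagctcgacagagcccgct
The Grsf1 window held 4 GC boxes and 1 ETS match and was 73.3% G or C. The Syncrip window held 3 GC boxes and was 72.3% G or C, and the Hnrnpm window held 1 TATA box and was 58.0% G or C. Among all 32851 promoter windows 35.7% held a GC box, 8.86% the ETS letters, 37.4% a CCAAT box and 13.6% a TATA box, and the median G or C content was 52.7%. These matches are descriptions of the letters and were not tied to any measured binding. By RefSeq, Grsf1 lies on chromosome 5 (88659233 to 88676171), Syncrip on chromosome 9 (88449364 to 88482591) and Hnrnpm on chromosome 17 (33646233 to 33685458).

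The stage markers followed the labels in most embryos. The summed level of 8 markers of the 2-cell stage had group medians of 1529 to 3237 TPM at the 2-cell stage and 0.895 to 4.39 TPM in blastocysts, and the sum of 10 blastocyst markers had group medians of 137 to 346 TPM and 7258 to 12610 TPM in the same stages. A total of 5 embryos went against their stage, 3 of them in the 8-cell table. For blastocysts this meant a blastocyst marker sum under 1000 TPM. For 4-cell and 8-cell embryos it meant 1000 TPM or more of the 2-cell markers, or 3000 TPM or more of another list. Those other lists were the blastocyst markers and 6 oocyte-derived markers. Embryos of the 2-cell and morula stages were not checked by this rule. Separately, 2 embryos, of which 1 is also among the 5, had fewer than 8000 genes at 1 TPM or more. The other embryos had 8350 to 12629 such genes. Sums of 5 sperm and testis markers and of 6 epididymis markers had group medians of at most 10.9 and 3.54 TPM. The sum of 7 cumulus cell markers had group medians of 9.98 to 149 TPM at the 2-cell stage, 197 to 294 TPM at the 4-cell stage and 2.24 to 11.9 TPM in blastocysts. In the 4-cell groups 1 to 5 of these 7 genes were at 0 TPM in every embryo. The sum was not split by gene at that stage, so it does not measure cumulus cell content there. Whether any of these bear on the results below was not tested, beyond the values without the 5 and the 2 embryos.

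Within the embryos of cauda sperm, Hnrnpf was the most abundant member at every stage, with group means of 685 TPM at 18 h and 1081 TPM at 28 h of the 2-cell stage and a mean over cohorts of 1211 TPM at the 4-cell stage and 957 TPM in blastocysts. Hnrnpk, the C-binding member, stood at 258 TPM at 18 h and at 862 TPM in blastocysts, where its 5 cohorts lay between 703 and 973 TPM. Hnrnpc had its highest mean, 664 TPM, at the 4-cell stage and 379 TPM in blastocysts. Hnrnph1 stood at 447 TPM in 4-cell and 454 TPM in 8-cell embryos and at 162 TPM in morulae. Its relative Hnrnph2 stood at 273 TPM in 4-cell embryos and 110 TPM in blastocysts, and Hnrnph3, the least abundant of the H genes, at 68.7 and 41.7 TPM. Hnrnpr was low throughout, with its highest mean, 33.3 TPM, at 28 h and its lowest, 16.0 TPM, in blastocysts. Grsf1 had its highest mean, 175 TPM, at the 4-cell stage and its lowest, 55.8 TPM, in morulae.

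**Figure D1:**
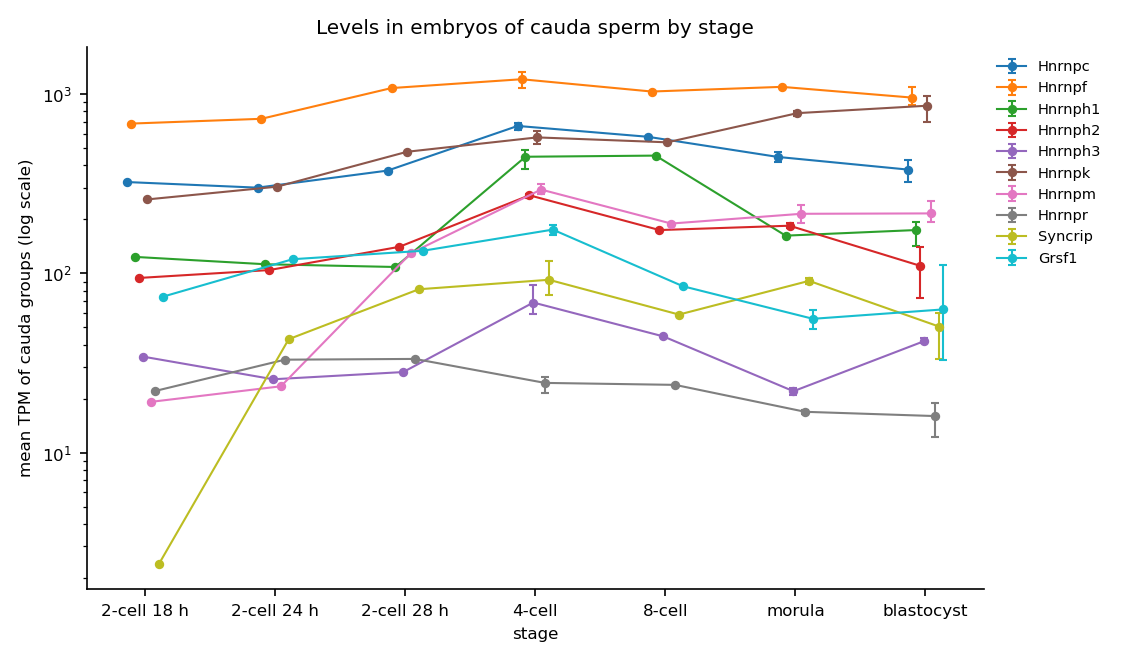
Mean TPM of the 10 genes (log axis) in embryos of cauda sperm at each stage; bars span the lowest and highest cohort mean where a stage has more than 1 cohort. Syncrip stands at 2.38 TPM at 18 h and 81.5 TPM at 28 h, and Hnrnpk is highest in blastocysts at 862 TPM.

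From the 4-cell stage on, stage and expression table cannot be told apart, so these levels are a description with no test. The 5 blastocyst cohort means of cauda embryos lay all below the 3 4-cell cohort means for 8 of the 10 members and all above them for 1, Hnrnpk. Over the 13370 genes at 1 TPM or more in any of these cohorts, 36.4% lay all below and 29.0% all above. The blastocyst cohort means of Grsf1 ran from 33.0 to 112 TPM, and its 4-cell cohort means from 164 to 186 TPM.

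The 2-cell table holds 18 h and 28 h embryos of the same 3 sessions, which allowed a test of time with both sperm sources together. A session is a date-like number in the labels, and sessions are named here by letter within each cohort. Between 18 h and 28 h, 7 members rose, 1 fell and 2 did not pass the test (limma on log2(TPM + 1), adjusted p under 0.05). This is 8 of 10 members where 75.5% of the 14969 genes tested were called, so a call in this comparison is no special property of these genes. The median change of the 10 was 0.67 on the log2(TPM + 1) scale, and that of all genes was -0.04.

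Syncrip changed most. In cauda embryos of 18 h its values ran from 0 to 6.75 TPM with a median of 1.99 TPM (n = 25). In cauda embryos of 28 h they ran from 1.08 to 186 TPM with a median of 79.7 TPM (n = 24). In caput embryos they ran from 0 to 3.76 TPM (n = 19) at 18 h and from 36.6 to 171 TPM (n = 25) at 28 h. Except for 1 cauda embryo of 28 h, at 1.08 TPM, the 2 times did not overlap. The change was 4.84 ± 0.20 (SE) on the log2 scale, 28.6-fold (limma adjusted p = 9.022e-45). Embryos of 24 h, all of 1 other session, lay between, with medians of 29.1 TPM (caput, n = 11) and 39.8 TPM (cauda, n = 8).

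Hnrnpm, the splicing regulator, was near its 18 h level at 24 h. In cauda embryos it had medians of 19.9 TPM (range 8.99 to 32.8) at 18 h, 22.0 TPM (0 to 48.4) at 24 h and 141 TPM (2.38 to 218) at 28 h. In caput embryos the medians were 14.3, 20.0 and 143 TPM. The 28 h embryos were thus high and both earlier times low, with overlap at the low end of 28 h. From 18 h to 28 h the change was 2.73 ± 0.22 (SE), 6.62-fold (limma adjusted p = 1.134e-21). The cauda embryo at 1.08 TPM of Syncrip is the one at 2.38 TPM of Hnrnpm.

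**Figure D2:**
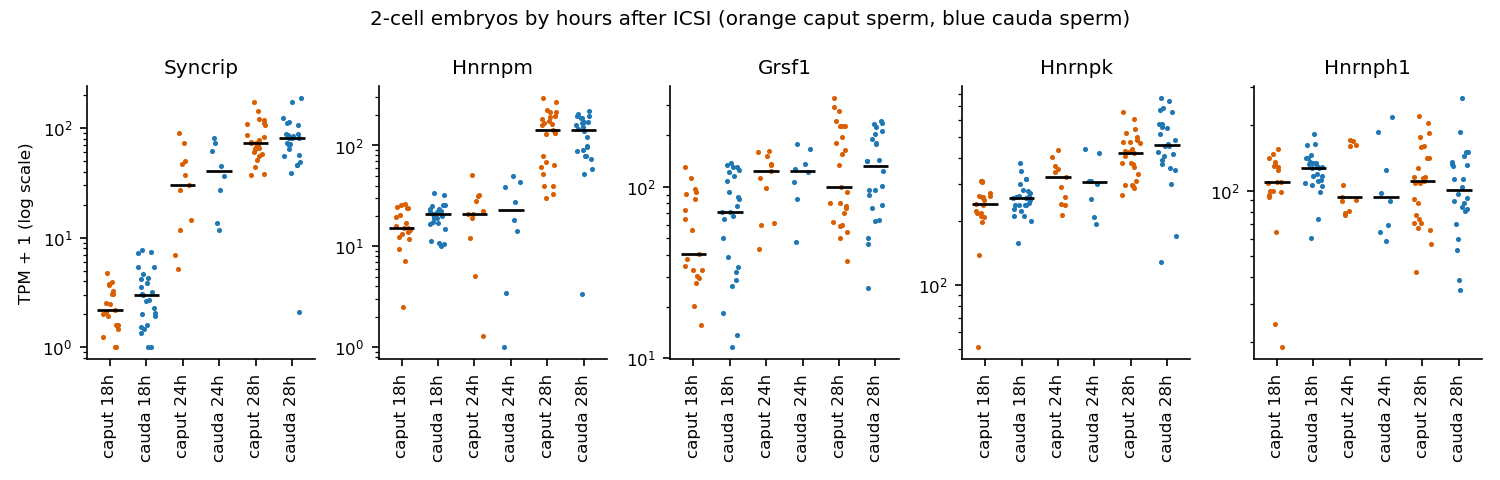
TPM + 1 (log axis) of 5 of the genes in each 2-cell embryo, by sperm source (orange caput, blue cauda) and hours after ICSI, with black lines at the medians. Syncrip has cauda medians of 1.99, 39.8 and 79.7 TPM at the 3 times and Hnrnpm of 19.9, 22.0 and 141 TPM, and the Hnrnph1 groups overlap.

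Grsf1 rose 2.06-fold between 18 h and 28 h (1.04 ± 0.16 SE, limma adjusted p = 1.279e-08), with cauda medians of 70.6 and 132 TPM. Its session values differed at both times: the cauda medians at 18 h were 27.8, 99.3 and 78.3 TPM in sessions A, B and C, and those at 28 h were 91.8, 189 and 63.5 TPM. The G-binding Hnrnpf rose 1.60-fold, Hnrnph2 1.41-fold, Hnrnpk 1.80-fold and Hnrnpr 1.59-fold. Hnrnph3 fell by 0.41 ± 0.11 (SE) (limma adjusted p = 0.0007918). Hnrnph1 (-0.06 on the log2 scale) and Hnrnpc (0.04) did not pass the test. Centring each embryo on its median moved the median change of all genes from -0.04 to -0.33, and the share of called genes that were higher at 28 h from 49.7% to 36.1%. Every member moved down with it. On that scale Hnrnpc (-0.25) and Hnrnph1 (-0.36) were called lower and Hnrnph2 lost its call (limma adjusted p = 0.104). Relative to the median of all genes Hnrnpc stood at 0.08, Hnrnph1 at -0.02 and Hnrnph2 at 0.54 under either scaling.

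The cumulus marker sum was also higher at 28 h than at 18 h. Its medians were 11.2 TPM (caput, 3.90 to 28.0) and 16.7 TPM (cauda, 0.74 to 37.0) at 18 h, and 149 TPM (caput, 24.5 to 217) and 134 TPM (cauda, 5.40 to 181) at 28 h. Of its 7 genes only Amhr2, the receptor of anti-Müllerian hormone, was high at 28 h, with medians of 147 TPM (caput) and 131 TPM (cauda) beside 0 TPM at 18 h in both. Cyp19a1, the aromatase, had medians of 10.6 TPM (caput) and 12.3 TPM (cauda) at 18 h and of 1.94 and 0.70 TPM at 28 h. Has2, Ptx3, Tnfaip6, Fshr and Lhcgr had medians of 0 TPM at 28 h in both groups, and Lhcgr was at 0 TPM in every embryo of both times. The part of cumulus cells in the changes of the members was not tested.

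Of the 24 other hnRNP genes listed for comparison, 23 were tested here, 17 rose and 2 fell between 18 h and 28 h. Of all genes tested, 75.5% were called in this comparison. The 3 with the smallest adjusted p were Rbmx, a splicing factor (21.0-fold higher), Cirbp, the cold-inducible RNA-binding protein (4.63-fold lower), and Hnrnpab (5.31-fold higher).

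Sperm source made no called difference to any member at the 2-cell stage. Caput minus cauda gave 0 calls among the 10 at 18 h, 24 h and 28 h by limma, with 1, 0 and 1 members at an unadjusted p under 0.05, where 0.0%, 0.00746% and 0.0759% of all genes tested were called. The difference of the source effect between 28 h and 18 h gave 0 member calls as well (0 at an unadjusted p under 0.05, and 0.0% of all genes called). Grsf1 differed by -0.12 ± 0.24 (SE) at 18 h and 0.02 ± 0.22 (SE) at 28 h.

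From the 4-cell stage on, Grsf1 was higher in embryos of caput sperm in 4 of the cohorts. Over the 21 comparisons of sperm source or injected RNA, Grsf1 was called in 8, and the 9 other members together were called once. In the 11 comparisons of caput with cauda it was called higher in 4 and lower in 0. Most of all genes called in these 4 were higher in caput embryos as well. Their share was 87.7% and 97.0% in 4-cell cohorts 1 and 2, 91.9% in morula cohort 1 and 98.2% in blastocyst cohort 4. In 1 of the 11, in blastocyst cohort 3, the caput embryos had also received the RNA labelled "GFP", and Grsf1 was not called there.

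In 4-cell cohort 1, Grsf1 in embryos of cauda sperm ran from 37.9 to 369 TPM with a median of 156 TPM (n = 32). In embryos of caput sperm it ran from 122 to 488 TPM with a median of 277 TPM (n = 32). The ranges overlapped, but every embryo under 122 TPM came from cauda sperm, and 30 of 32 caput embryos exceeded the median of the cauda group. The fitted difference was 1.03 ± 0.17 (SE), 2.05-fold (limma adjusted p = 3.603e-05, 1 of 10 members called where 1.12% of all genes were). The difference was uneven between sessions. In session D the cauda embryos ran from 48.0 to 124 TPM and the caput embryos from 122 to 488 TPM, while in session B the medians were 319 TPM (cauda) and 259 TPM (caput). Without session D the difference was 0.69 and the adjusted p 0.064.

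In 4-cell cohort 2, the cauda embryos ran from 31.4 to 421 TPM with a median of 131 TPM (n = 23), and the caput embryos from 81.2 to 400 TPM with a median of 234 TPM (n = 23). Again the cauda group held both low and high embryos. The difference was 0.93 ± 0.22 (SE), 1.90-fold (limma adjusted p = 0.016, 1 of 10 members called where 0.573% of all genes were), and 22 of 23 caput embryos exceeded the median of the cauda group. Here too the sessions differed. Session C had medians of 309 TPM (cauda, n = 8) and 245 TPM (caput, n = 7), and session D held 1 cauda embryo. The call was lost without session A (0.74, adjusted p = 0.559), without B (0.82, adjusted p = 0.277) and without D (0.90, adjusted p = 0.055).

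**Figure D3:**
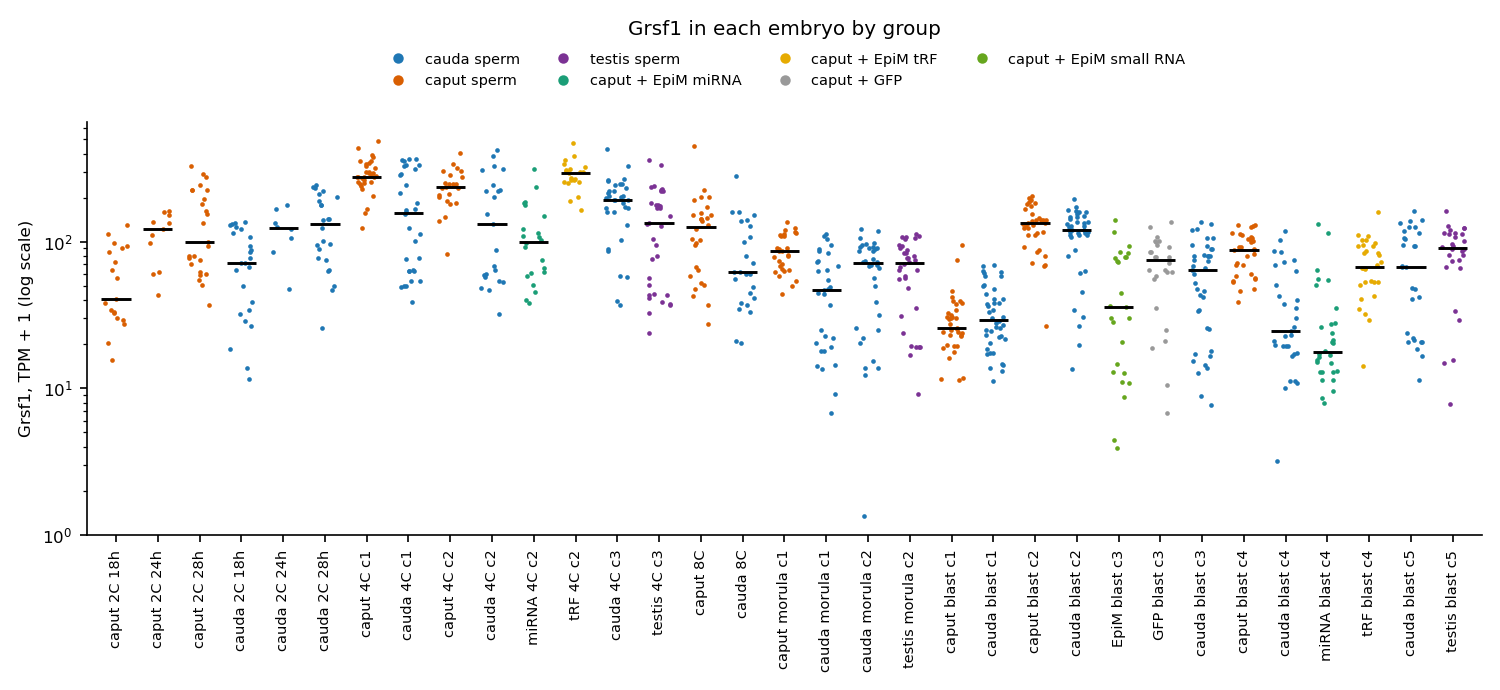
Grsf1 in each of 933 embryos, TPM + 1 on a log axis, by group, coloured by sperm source or injected RNA, with black lines at the medians. In blastocyst cohort 4 the caput and tRF groups have medians of 87.2 and 66.7 TPM, and the cauda and miRNA groups of 23.4 and 16.6 TPM.

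In morula cohort 1, cauda embryos ran from 5.75 to 112 TPM of Grsf1 with a median of 45.8 TPM (n = 31), and caput embryos from 43.3 to 136 TPM with a median of 84.8 TPM (n = 29). The median of the cauda group was exceeded by 28 of the 29 caput embryos. The difference was 1.09 ± 0.21 (SE), 2.13-fold (limma adjusted p = 0.0007291, 1 of 10 members called where 0.859% of all genes were), and it had the same sign in 4 of 4 sessions. It was still called with any 1 session left out (0.99 to 1.24).

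In blastocyst cohort 4, cauda embryos ran from 2.19 to 118 TPM with a median of 23.4 TPM (n = 31), and caput embryos from 37.7 to 130 TPM with a median of 87.2 TPM (n = 32). Each of the 32 caput embryos exceeded the median of the cauda group. The difference was 1.47 ± 0.22 (SE), 2.78-fold (limma adjusted p = 1.075e-05, 1 of 10 members called where 1.84% of all genes were). Here too it varied by session. Cauda embryos of sessions A and B had medians of 93.2 and 72.8 TPM beside caput ranges of 86.3 to 114 and 52.1 to 124 TPM, while in sessions F and G the cauda medians were 18.3 and 18.6 TPM and the caput medians 81.0 and 88.0 TPM.

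**Figure D4:**
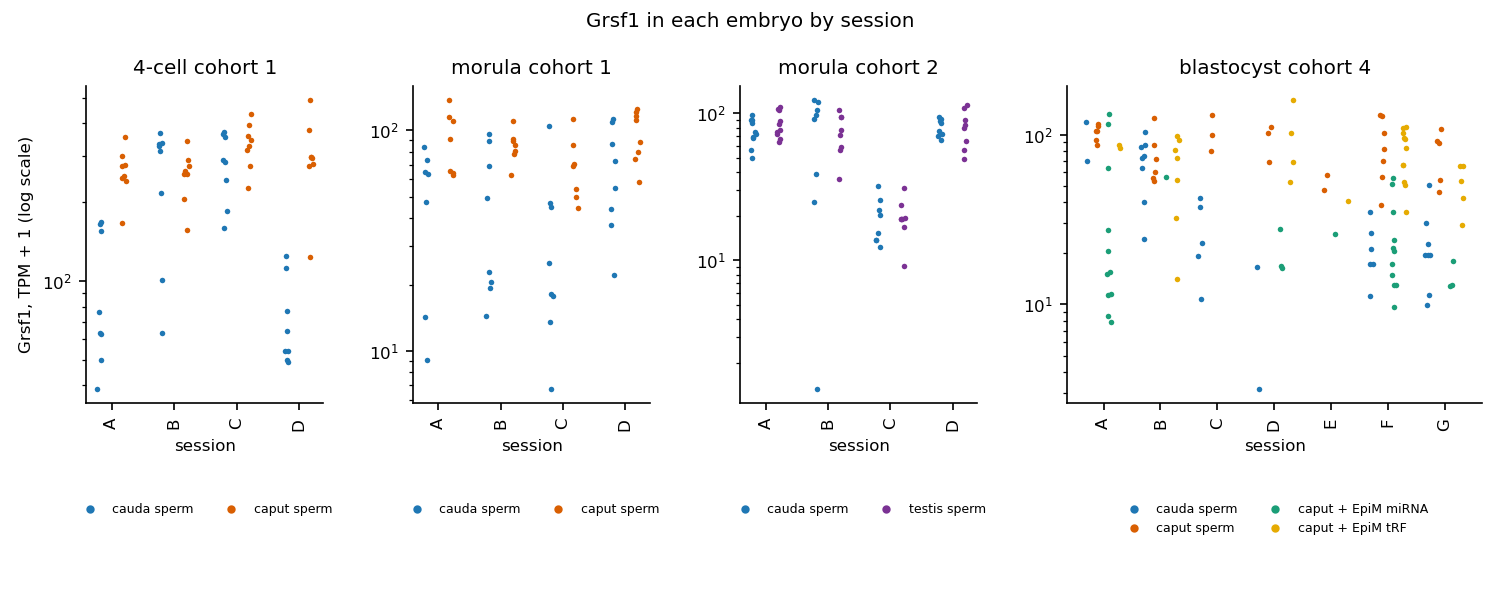
Grsf1 in each embryo (TPM + 1, log axis) by session in 4 cohorts, coloured by sperm source or injected RNA. In morula cohort 2 both the cauda and the testis embryos of session C are low, with medians of 16.9 and 18.2 TPM.

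The other cohorts gave no call for Grsf1. At the 8-cell stage the caput median was 125 TPM (n = 28) and the cauda median 60.98 TPM (n = 25), with a difference of 0.67 ± 0.35 (SE) (limma adjusted p = 0.9997, 0.0% of all genes called). These medians come largely from different sessions, since 15 caput embryos were of session A, which held no cauda embryo. In the shared sessions D, E and F the caput medians were 96.4, 175 and 140 TPM and the cauda medians 127.5, 59.6 and 97.9 TPM. In blastocyst cohort 1 both groups were low, with medians of 25.0 TPM (caput, n = 35) and 28.4 TPM (cauda, n = 42), and in cohort 2 both were high, with 132 TPM (caput, n = 34) and 119 TPM (cauda, n = 39). The differences were -0.05 ± 0.15 (SE) and 0.12 ± 0.19 (SE), where 2.12% and 0.28% of all genes were called. Among the 10 members limma called 0 in each of these 3 comparisons, with 0, 2 and 3 at an unadjusted p under 0.05. Whether the source effect differed between cohorts was not tested, since each cohort is a table of its own.

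The injected RNAs split by kind. In 4-cell cohort 2, embryos of caput sperm given EpiM miRNA ran from 37.1 to 311 TPM of Grsf1 with a median of 98.9 TPM (n = 22), and those given EpiM tRF from 163 to 469 TPM with a median of 294 TPM (n = 21). The miRNA embryos were mostly low and the tRF embryos all at 163 TPM or more, with overlap. The miRNA group was lower than the caput group by 2.45-fold (-1.30 ± 0.22 SE, limma adjusted p = 5.512e-05), with 20 of 22 embryos below the caput median and the same sign in 4 of 4 sessions. It was lower than the tRF group by 3.10-fold (-1.63 ± 0.23 SE, limma adjusted p = 1.21e-06), with 21 of 22 embryos below the tRF median. The tRF group did not pass the test against caput (0.33 ± 0.23 SE, limma adjusted p = 0.708).

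In blastocyst cohort 4 the miRNA embryos ran from 6.88 to 132 TPM with a median of 16.6 TPM (n = 30), and the tRF embryos from 13.1 to 158 TPM with a median of 66.7 TPM (n = 30). The miRNA group was 3.87-fold lower than caput (-1.95 ± 0.23 SE, limma adjusted p = 2.574e-10), with 28 of 30 embryos below the caput median. The sign was the same in 6 of 6 sessions, of which B and E held 1 miRNA embryo each. The miRNA group was 3.13-fold lower than tRF (-1.65 ± 0.23 SE, limma adjusted p = 8.065e-07), and 28 of 30 embryos lay below the tRF median. Of all genes called, 1.08% were higher in miRNA than in caput embryos, and 0.565% higher in miRNA than in tRF embryos. The tRF group did not pass the test against caput (-0.31 ± 0.22 SE, limma adjusted p = 0.875). In both cohorts the miRNA, tRF and cauda groups are set against the same caput embryos, so those comparisons are not independent.

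The members called in these comparisons were 2 of 10 for miRNA minus caput in 4-cell embryos (1.26% of all genes), 1 for miRNA minus tRF (0.822%) and 0 for tRF minus caput (0.00861%, and 1 member at an unadjusted p under 0.05). In blastocysts they were 1 for miRNA minus caput (3.05%), 1 for miRNA minus tRF (1.48%) and 0 for tRF minus caput (0.0%, and 0 members at an unadjusted p under 0.05). The second member was Hnrnpc in 4-cell embryos, where miRNA embryos ran from 288 to 636 TPM (median 454 TPM) and caput embryos from 379 to 757 TPM (median 605.8 TPM). The groups overlapped and the difference was -0.38 ± 0.10 (SE) (limma adjusted p = 0.024). It lost its call without session A (adjusted p = 0.302) or C (0.582), and after centring on the median (0.183). That scaling moved the share of called genes that were higher in miRNA embryos from 14.3% to 32.5%.

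When the embryos of a session and group were averaged into 1 value, which treats the session as the replicate, Grsf1 kept its call in morula cohort 1 and lost it in the other 7 comparisons. The values then were 1.03 in 4-cell cohort 1 (limma adjusted p = 0.235), 1.00 for caput minus cauda (0.412), -1.32 for miRNA minus caput (0.108) and -1.63 for miRNA minus tRF (0.155) in 4-cell cohort 2. In blastocyst cohort 4 they were 1.62 for caput minus cauda (0.325), -1.70 for miRNA minus caput (0.0782) and -1.36 for miRNA minus tRF (0.817). Over all genes that fit called 20 in 4-cell cohort 1, 38 higher and 1 lower in morula cohort 1, 7 in miRNA minus caput of blastocysts and 0 in the remaining 5, where at most 929 genes had an unadjusted p under 0.05.

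In blastocyst cohort 3, EpiM small RNA was compared with GFP. Grsf1 ran from 2.90 to 140 TPM (median 34.9 TPM, n = 25) after EpiM small RNA, from 5.78 to 136 TPM (median 74.1 TPM, n = 26) after GFP and from 6.74 to 136 TPM (median 63.0 TPM, n = 39) in cauda embryos. All 3 groups spanned low and high embryos. EpiM small RNA minus GFP was -0.94 ± 0.37 (SE) and did not pass the test (limma adjusted p = 0.611), and 2 of 4 shared sessions had each sign. GFP minus cauda was 0.25 ± 0.32 (SE). Limma called 0 of 10 members in either comparison, with 1 and 5 at an unadjusted p under 0.05, where 0.466% and 0.455% of all genes were called. The 5 in GFP minus cauda were all lower after GFP, led by Hnrnpf at -0.66 ± 0.25 (SE) (limma adjusted p = 0.199), with means of 676 and 868 TPM.

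**Figure D5:**
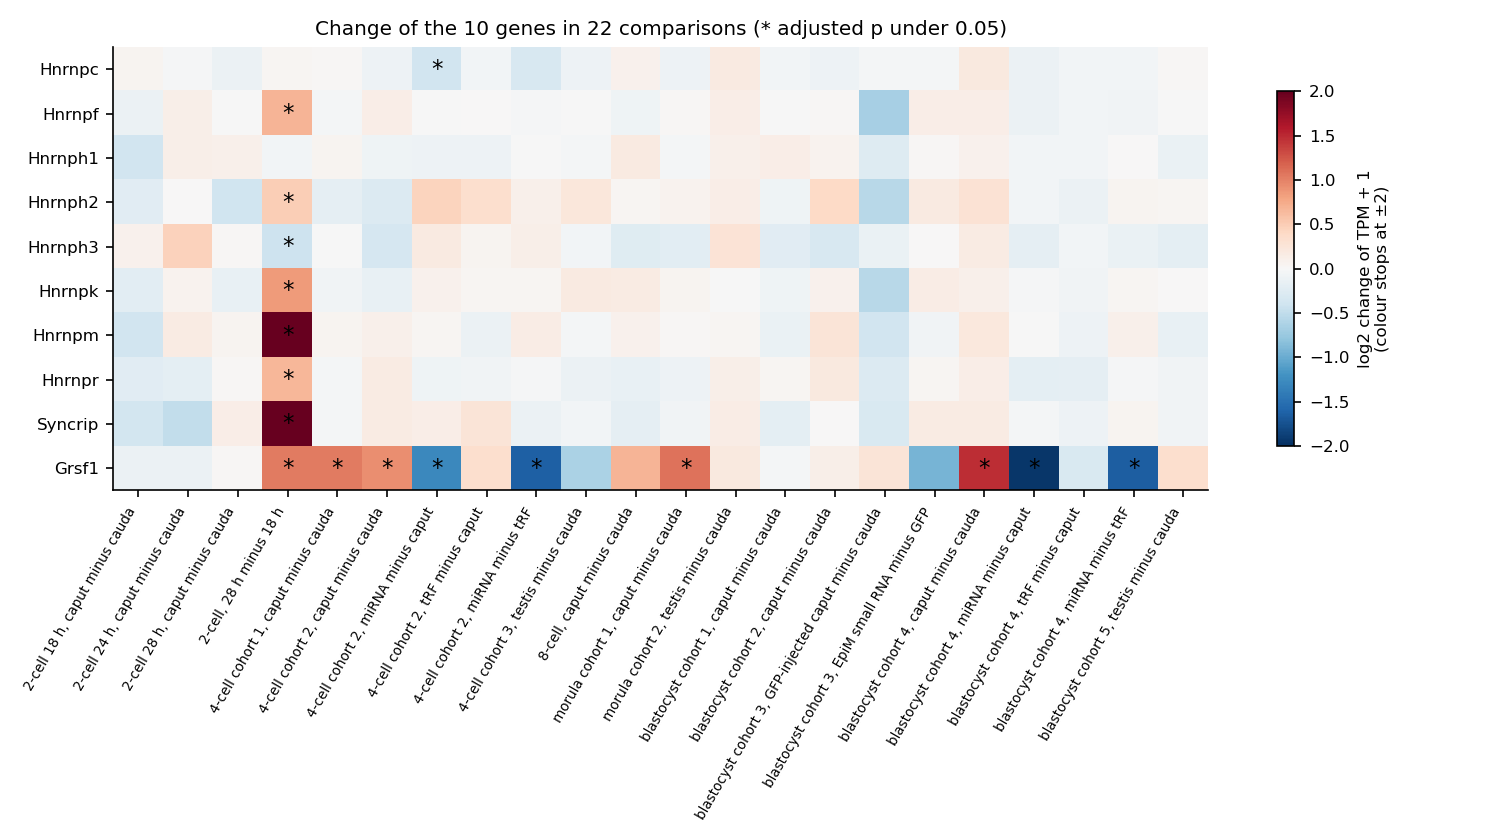
Log2 change of TPM + 1 of the 10 genes (rows) in 22 comparisons (columns); colours stop at ±2 and stars mark a limma adjusted p under 0.05. Grsf1 carries 8 of the 9 stars outside the column of 28 h minus 18 h. In those columns 0.0% to 3.05% of all genes tested were called.

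Testis sperm gave no called difference from cauda sperm in any member. In 4-cell cohort 3 Grsf1 had medians of 133 TPM (testis, n = 34) and 193 TPM (cauda, n = 33), both groups with low and high embryos. The difference was -0.64 ± 0.21 (SE) (limma adjusted p = 0.504) and 26 of 34 testis embryos lay below the cauda median. In morula cohort 2 the medians were 70.9 TPM (testis, n = 34) and 70.3 TPM (cauda, n = 34). There every embryo of session C was low, from 8.14 to 30.1 TPM (testis) and from 11.2 to 30.8 TPM (cauda), whereas sessions A and D lay between 47.7 and 112 TPM in both groups. In blastocyst cohort 5 the medians were 89.97 TPM (testis, n = 28) and 66.7 TPM (cauda, n = 29), with a difference of 0.33 ± 0.24 (SE). Limma called 0 of 10 members in each, with 3, 2 and 0 at an unadjusted p under 0.05, where 0.0174%, 1.58% and 0.0% of all genes were called.

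The 9 other members lay within a narrower band than Grsf1, which ranged from -1.95 to 1.47 over the same comparisons. Over their 189 tests of source or injection the fitted changes lay between -0.66 and 0.46 on the log2 scale. The band was narrowest for Hnrnpr (-0.27 to 0.19), followed by Hnrnph1 (-0.38 to 0.18) and Hnrnpc (-0.38 to 0.19), and widest for Hnrnph2 (-0.56 to 0.44). In blastocyst cohort 4, where Grsf1 had its largest fitted change of the 21 comparisons, Hnrnpf had medians of 1095 TPM in caput, 967 TPM in cauda, 1008 TPM in miRNA and 1019 TPM in tRF embryos. Hnrnpk stood at 1093, 942, 987 and 1044 TPM in the same order, and Hnrnph1 at 191, 182, 194 and 183 TPM. The ranges of all 4 groups overlapped for each of these genes. Hnrnph2, after EpiM miRNA in 4-cell embryos, had a median of 300 TPM (224 to 451, n = 22) beside 234 TPM in caput embryos (70.0 to 443, n = 23). Its difference of 0.44 ± 0.13 (SE) missed the threshold (limma adjusted p = 0.063), with 20 of 22 embryos higher than the caput median, and in blastocysts it was -0.06 ± 0.14 (SE).

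Grsf1 was the most variable member among embryos in 22 of the 33 groups, by the coefficient of variation. Syncrip was so in 5, Hnrnph3 in 3, Hnrnph2 in 2 and Hnrnpm in 1. The coefficient was taken over all embryos of a group, so it includes the spread between sessions. In cauda embryos of 4-cell cohort 1 the session medians of Grsf1 were 68.9, 319, 286 and 58.15 TPM. The coefficient of Grsf1 had a median of 55.0% over the 33 groups, against 18.3% for Hnrnpc, 18.4% for Hnrnpk and 34.2% for Hnrnph3, the next most variable member by that median. In 4-cell cohort 2 it was 29.8% in caput and 23.5% in tRF embryos, and 74.9% in cauda and 62.5% in miRNA embryos. In blastocyst cohort 4 it was 31.8% in caput, 80.3% in cauda, 103% in miRNA and 43% in tRF embryos. Caput embryos were not the less variable group everywhere: caput and cauda stood at 62.1% and 50.9% at 28 h of the 2-cell stage, 66.7% and 72.0% at the 8-cell stage and 56.4% and 50.5% in blastocyst cohort 1. The median number of genes at 1 TPM or more was close between the groups of 4-cell cohort 2 and of blastocyst cohort 4, from 9989 (tRF) to 10240 (caput) in the 4-cell embryos and from 10940 (tRF) to 11050 (caput) in the blastocysts.

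Among the other hnRNPs, 3 genes were called in all 8 comparisons in which Grsf1 was: Hnrnpab and Hnrnpu, nuclear RNA-binding proteins, and Pcbp1, which binds C-rich RNA. The share of all genes called in each of the 8 was 0.573% to 3.05%, and the share called in all 8 was not computed. The 8 were picked by the calls of Grsf1, and those within a cohort share embryos. In morula cohort 1 Pcbp1 was 2.80-fold higher in caput embryos (762 ± 308 TPM, SD, n = 29, against 255 ± 68.1 TPM, n = 31, limma adjusted p = 1.391e-13), Hnrnpu 2.54-fold and Hnrnpab 2.36-fold. After EpiM miRNA in blastocyst cohort 4, Pcbp1 was 2.92-fold lower than in caput embryos, Hnrnpu 2.66-fold and Hnrnpab 2.45-fold. In cohort 3, EpiM small RNA minus GFP called Pcbp1 (3.03-fold lower), Hnrnpab (2.58-fold) and Hnrnpl (1.75-fold), and Grsf1 missed. In 4-cell cohort 1, 5 of 23 other hnRNPs tested were called higher, where 1.12% of all genes were called. In blastocyst cohort 4 caput minus cauda it was 7 of 24, where 1.84% of all genes were called. No other hnRNP was called lower in either comparison. The median change of the other hnRNPs was 0.00 and 0.29 there, and that of all genes -0.01 and 0.07.

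Over the 33 group means, the genes with the pattern most like Grsf1 among 9729 genes with a mean of 5 TPM or more were Hnrnpu (Pearson r = 0.87 of mean log2(TPM + 1)), Sntb2 (0.86) and Tmem248 (0.85). Hnrnpab ranked 23rd (0.77), and the nearest other member, Hnrnpr, 719th (0.60). The groups share tables and sessions, so these values are a description. Over embryos within a table, with group and session removed, Grsf1 and Hnrnpu had r with a median of 0.66 over the 12 tables (0.16 to 0.83), while the medians of Grsf1 with the other members ran from 0.02 (Hnrnph3) to 0.28 (Hnrnpf). The highest single value with a member was 0.80, with Hnrnph2 in morula cohort 2. In every other table Grsf1 and Hnrnph2 had an r of at most 0.55. A cauda embryo of morula cohort 2 had only 4864 genes at 1 TPM or more, and r was not computed without it. Among pairs of members, Hnrnpf and Hnrnpk had the highest median r, 0.61 (-0.05 to 0.96), and Hnrnpf and its relative Hnrnph2 had 0.50 (0.11 to 0.85). Embryos of a table share library preparation and TPM sum to a fixed total, so these too are descriptions.

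Read sharing bears on which members are counted cleanly. Of the 50-base words of the coding sequence in GENCODE, 96.1% of Hnrnpf, 75.1% of Hnrnpk, 55.1% of Hnrnph2 and 50.9% of Syncrip also occur in transcripts of other genes, and 38.5% of Hnrnpc and 32.5% of Hnrnpr do. The share was 0.585% for Hnrnph1 and 0.0% for Hnrnph3, Hnrnpm and Grsf1. None of those other genes has a row in the tables, and no member shared such a word with another member. How reads matching several places were counted is not given in the sources used here, so the levels of the first 6 are uncertain in that respect.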

How the data were processed

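Single embryos were sequenced by Smart-seq2. The authors deposited 1 table of TPM per cohort, with the mm10 build and Bowtie named in the submitters' processing notes; version, annotation and counting are not given in the sources used here. TPM keeps no depth, so no count test or counting interval was used. Each column was matched to a sample by its title, and 2 columns with values that match no sample were left out. The members and lists were chosen with earlier results of these data known.

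Values were taken as log2(TPM + 1) and kept where 1 TPM was reached in a number of embryos equal to 50% of the smaller group. limma 3.58.1 in R 4.3.3 fitted group and session over all groups of a table with trended, robust variance, and p-values were adjusted by Benjamini and Hochberg over all genes tested (called under 0.05). The labels number embryos but name no parents, and several embryos share a session, so p-values measure the spread between embryos. The script was tested on simulated data with known changes. Folds are on the log2(TPM + 1) scale and understate low genes. No 2 libraries were identical (highest correlation 0.988). All 10 members are named, with at most 3 called genes of the other hnRNP list per comparison, and the 3 genes most like Grsf1. In 8 embryos of blastocyst cohort 3 title and description disagree on the session, so those sessions were merged. The labels' culture note gives 28 h for embryos of every stage. Alternatives were another pseudocount (0.1), no filter, no session term, a replicate block, session means, median centring, only the groups compared, each session left out, and, chosen after the data were seen, 2 sets of doubtful libraries left out.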

Additional observations from a re-analysis of the deposited data

How the results depend on the processing

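Pseudocount, filter, session term and fitting only the groups compared changed no count of called members by over 1.5 times. The replicate block did not either: in 4-cell cohort 1 it called 1 member, as without it. Embryos of the same number showed no consistent pairing. The median correlation of such pairs ran from -0.078 to 0.04 over the comparisons checked, and in none did every pair correlate over 0.1. The highest single pair reached 0.667, in blastocyst cohort 1. With 1 mean per session and group the called members went to 0 in 7 comparisons: caput minus cauda in 4-cell cohorts 1 and 2 and blastocyst cohort 4, and miRNA minus caput and miRNA minus tRF in 4-cell cohort 2 and blastocyst cohort 4. With each session left out, the called members ranged from 0 to 1 for caput minus cauda in 4-cell cohorts 1 and 2, from 1 to 3 for miRNA minus caput and from 1 to 2 for miRNA minus tRF in 4-cell cohort 2. Between 18 h and 28 h, Hnrnpc turned to -0.254 when centred on the median, a scaling that lowers every gene by the same amount in this comparison. With a session left out Hnrnpc lay between -0.019 and 0.129, and Hnrnph1 between -0.236 and 0.118. Leaving out the 2 embryos with few genes or the 5 against their stage changed no call of Grsf1; without the latter, Hnrnph2 passed in miRNA minus caput of 4-cell embryos (0.456). Depth is unknown, so no limit of detection can be given.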
